A study of Homo sapiens with 12 samples.

Results

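The genes of oxidative phosphorylation were examined in WI-38 cells, a line of normal human lung fibroblasts, cultured with or without TGF-β. The set was defined by name and identifier rather than by measured differences, though earlier results of these data were known. Nuclear genes were those whose symbol in the authors' filtered table follows the names of respiratory chain and ATP synthase subunits, and mitochondrial genes were the protein-coding genes of mitochondrial DNA. This gave 89 genes of the 25702 counted, 76 of them nuclear and 13 mitochondrial. All 89 passed the filter on low counts used here, since the names came from a table already filtered on level. By complex, the nuclear genes were 35 of complex I, 4 of complex II, 9 of complex III, 11 of complex IV and 15 of complex V, and 2 others only carry a name of that form. The mitochondrial genes were 7 of complex I, 1 of complex III, 3 of complex IV and 2 of complex V.

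RNA was sequenced from 3 flasks in each of 4 conditions. Untreated flasks (D1 and D20) and flasks given 2 ng/mL TGF-β (D1+ TGF-β, and D20+ TGF-β for the longer time) were taken after 1 or 20 days. Below, the early response is the difference of D1+ TGF-β from D1 and the late response that of D20+ TGF-β from D20. The treated time comparison sets D20+ TGF-β against D1+ TGF-β, and the untreated time comparison sets D20 against D1. The labels give passages 2 to 3 for D1 and 5 to 6 for D20, so time in culture and passage cannot be told apart. The D20 flasks of each treatment came from 1 parent flask, so that p-values measure the spread between flasks that share an origin.

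Oxidative phosphorylation passes electrons from NADH through complex I, or from succinate through complex II, to ubiquinone, then through complex III and cytochrome c to complex IV, which reduces oxygen. Complexes I, III and IV pump protons across the inner mitochondrial membrane, and complex V, the ATP synthase, uses their return to make ATP. Complex II is encoded by nuclear genes alone, whereas the other complexes are built from proteins of both genomes, so that transcripts from the nucleus and from mitochondrial DNA have to meet in 1 assembly. Fibroblasts that become myofibroblasts are known to change their use of energy, and the genes below are a view of the transcripts only.

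Libraries held 8674488 to 18286197 counts, and 9490 genes with 10 or more cpm (counts scaled by library size) in 6 or more libraries were tested. The 9 fibroblast markers summed to 22012 to 27148 cpm in D1, 42784 to 43865 in D1+ TGF-β, 23979 to 25893 in D20 and 44389 to 53549 in D20+ TGF-β. Of these 9, 3 were higher in the early response, 2 higher and 2 lower in the late response, 3 higher and 1 lower in the treated and 6 higher in the untreated time comparison. The 3 myofibroblast markers ACTA2, TAGLN and CNN1 summed to 886 to 1443 cpm in D1, 2578 to 2811 in D1+ TGF-β, 1372 to 1458 in D20 and 1393 to 1624 in D20+ TGF-β. All 3 were higher in the early response, 1 was lower in the late response, all 3 were lower in the treated and 2 higher in the untreated time comparison.

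Of 3 markers of mature smooth muscle, only SMTN was tested, and it fell by 1.25 in the untreated (edgeR adjusted p = 2.46e-06) and fell by 1.47 in the treated time comparison (adjusted p = 2.13e-06). Of 6 epithelial markers, KRT8 was tested, at 6.98 to 9.20 cpm on day 1 and 11.7 to 15.96 on day 20, and rose by 0.83 in the untreated (adjusted p = 5.35e-05) and by 0.60 in the treated time comparison (adjusted p = 0.00129), while KRT5 had 0 counts and SFTPC 0.0939 cpm or less. The 4 endothelial markers summed to 2.58 cpm or less with CDH5 at 0, and the 4 leukocyte markers to 0.618 or less outside D20, where CD14 was at 5.34 to 6.19 cpm with CD3E and LYZ at 0. The part of these shifts in the results below was not tested. Cells of another proportion and cells with another amount of RNA cannot be told apart in such bulk samples.

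Some libraries stood apart from the others of their condition. Of the 76 nuclear genes, 66 were lower in D1 replicate 2 than in both other D1 libraries, with a median deviation of -0.157 (log2) from the D1 mean, and 58 were higher in D1 replicate 3, with a median deviation of 0.152. Transcripts of the nuclear set are short, with a median length of 804 bases against 3595 for all other genes tested. Other genes under 1000 bases deviated alike, by -0.164 in D1 replicate 2 and 0.117 in D1 replicate 3, while genes of 1000 bases or more deviated by 0.000215 and -0.00271. The spread of all genes around the mean of the condition was widest in D1 replicate 2 (SD 0.208) and D20+ TGF-β replicate 3 (SD 0.187). It was 0.157 and 0.146 in D1 replicates 1 and 3, and 0.119 or less in the other libraries. Counts of called genes are given below with and without D1 replicate 2, D1 replicate 3 and D20+ TGF-β replicate 3.

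**Figure D1:**
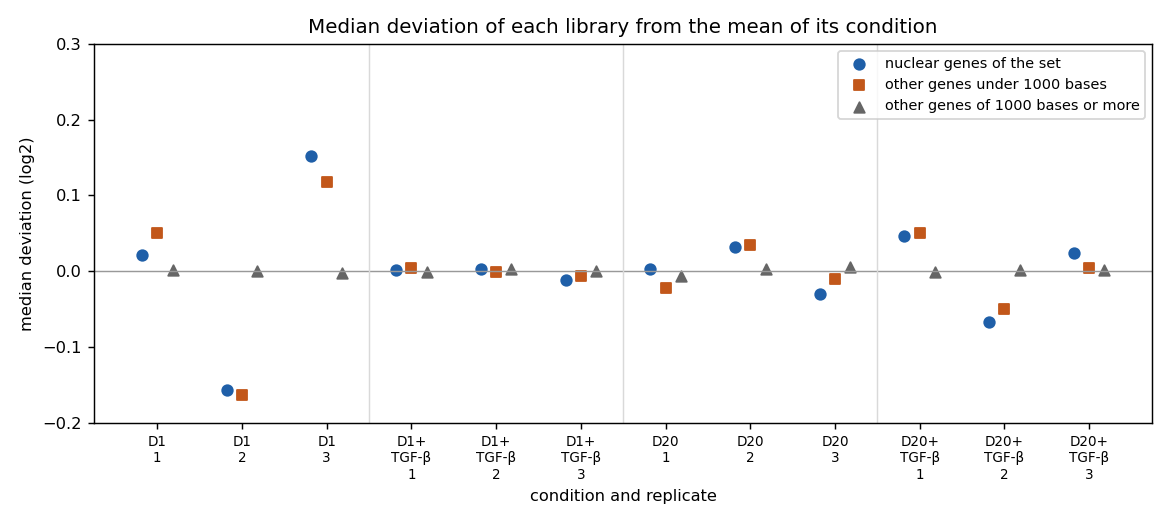
Median deviation (log2 cpm) of each of the 12 libraries from the mean of its condition, for the 76 nuclear genes (circles), other genes under 1000 bases (squares) and other genes of 1000 bases or more (triangles). D1 replicate 2 and D1 replicate 3 lie at -0.157 and 0.152 for the nuclear genes, and the squares of these libraries lie on the same side of 0.

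Few genes of oxidative phosphorylation passed the test in any comparison, nearly all of them lower, and by less than 0.7 on the log2 scale. In the early response, which asks how the cells first react, 2 of the 89 genes were called (edgeR, adjusted p under 0.01), both lower, where 13.4% of all genes tested were called, 6.89% higher and 6.50% lower. In the late response, which sets long treatment apart from time in culture, 7 were called, 6 lower and 1 higher, against 27.5% of all genes, 12.8% higher and 14.7% lower. In the treated time comparison, long against short treatment, 7 were called, all lower, against 34.8%, 17.2% higher and 17.7% lower. In the untreated time comparison, which follows culture alone, 6 were called, all lower, against 36.4%, 18.9% higher and 17.6% lower.

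The libraries of the groups did not overlap for 18 of the 89 genes in the early response, all lower, where 36.4% of all genes did not overlap, 17.6% higher and 18.8% lower. In the late response 10 genes were higher and 32 lower without overlap, against 58.3% of all genes, 28.7% higher and 29.7% lower. The treated time comparison had 11 higher and 25 lower, against 63.2%, 31.7% higher and 31.5% lower. The untreated one had 6 higher and 19 lower, against 55.6%, 29.4% higher and 26.2% lower.

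Altogether 15 of the 89 genes were called in at least 1 of these comparisons and 74 in none. The matching share of all genes was not counted, but it cannot be under 36.4%, the share called in the untreated time comparison alone. With all libraries, 15 of 89 thus lay below the background. For the difference of the responses at D20 and D1, edgeR called 0 of the 89 genes against 10.4% of all genes (4.51% higher, 5.87% lower), with 10 at an unadjusted p under 0.05, and DESeq2 called 1. The median log2 fold change of the nuclear genes was -0.11 in the early and -0.07 in the late response, -0.03 in the treated and -0.10 in the untreated time comparison. Over all genes tested these medians were -0.02, 0.01, 0.01 and 0.01. Over other genes under 1000 bases they were -0.12, 0.08, 0.005 and -0.15. The 42 nuclear genes under 1000 bases had medians of -0.17 in the early response and -0.11 in the untreated time comparison. The 33 nuclear genes of 1000 bases or more had -0.08 in both, against -0.01 and 0.02 for other genes of that length. At like length the nuclear median was thus lower in the early response. In the untreated time comparison it was lower among the longer genes only. With 1 library left out, the nuclear median ran from -0.19 (without D1 replicate 2) to -0.0519 (without D1 replicate 3) in the early response, and from -0.0903 to -0.0393 (without D20+ TGF-β replicate 2) in the late response. It ran from -0.0608 (without D20+ TGF-β replicate 1) to -0.0206 in the treated and from -0.18 (without D1 replicate 2) to -0.0201 (without D1 replicate 3) in the untreated time comparison.

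Counts of called genes depended on the D1 libraries. Without D1 replicate 2, 18 of the 89 genes were called in the early response (20.2%, all lower) against 19.8% of all genes, so that the share was no longer below the background. In the untreated time comparison, 19 were called without D1 replicate 2, 18 of them lower (21.3% against 42.3%). Without D1 replicate 3, 1, 10, 12 and 4 genes were called in the early response, the late response, the treated and the untreated time comparison, against 12.7%, 29.1%, 36.6% and 30.9% of all genes. Without D20+ TGF-β replicate 3, 3, 5, 6 and 8 were called, against 15.8%, 23.9%, 35.4% and 38.5%. Without both D1 replicate 2 and D20+ TGF-β replicate 3, 25, 10, 12 and 32 genes were called in the 4 comparisons in the order given above, against 27.8%, 36.1%, 47.3% and 48.9% of all genes.

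**Figure D2:**
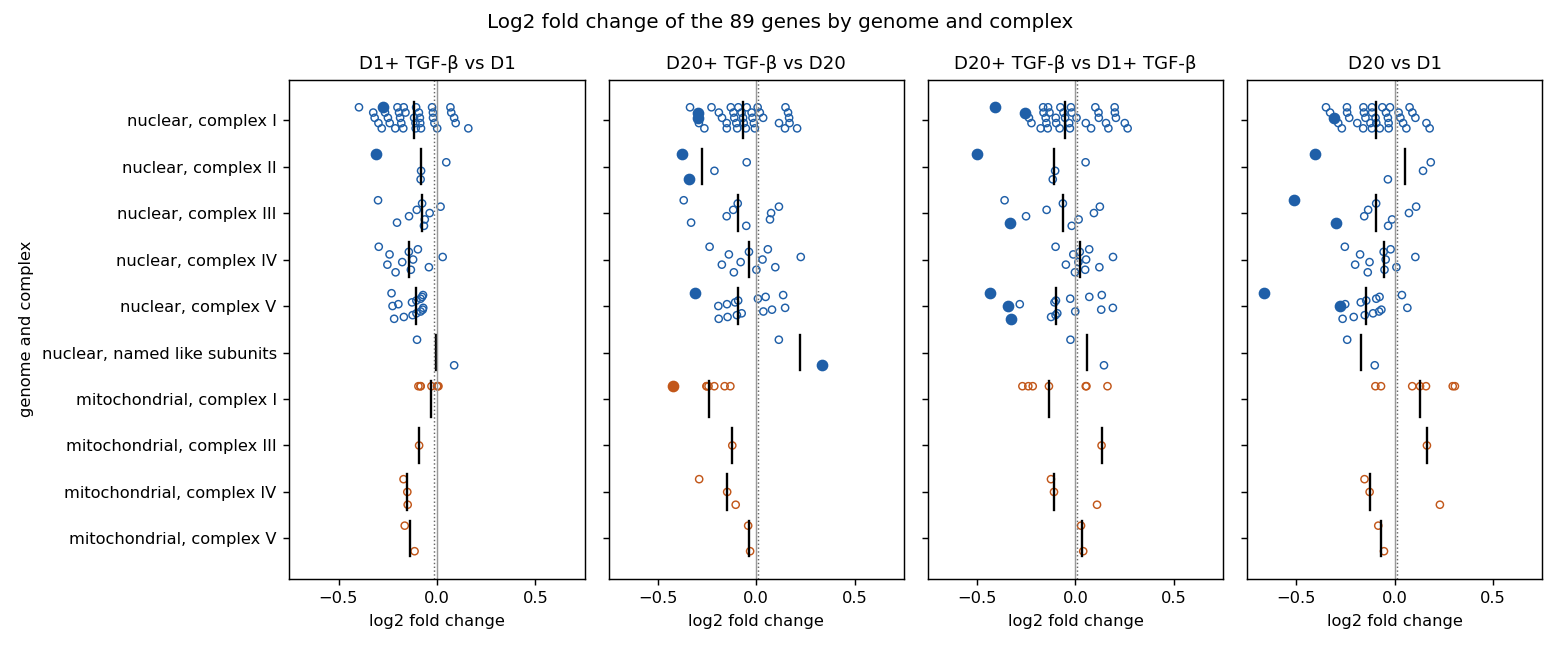
Log2 fold change (x axis) of each of the 89 genes in the 4 comparisons, grouped by genome and complex (y axis). Blue, nuclear; orange, mitochondrial; filled, edgeR adjusted p under 0.01; black bar, median of the row; dotted line, median of all genes tested. Filled points lie left of 0 except COX7A2L at 0.33 in the late response.

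Complex II, succinate dehydrogenase, which also works in the citric acid cycle, had called genes in each of the 4 comparisons, SDHA and SDHC with TGF-β and SDHB over time. In the order of comparisons above, 1, 2, 1 and 1 of its 4 genes were called (25%, 50%, 25% and 25%). Of all genes, 13.4%, 27.5%, 34.8% and 36.4% were called, so that both time comparisons lay below the background. SDHA (chromosome 5: 218418 to 257197, GRCh37, plus strand), the flavoprotein that oxidises succinate, was at 110.1, 105.6 and 108.7 cpm in the D1 libraries and at 89.4, 85.6 and 86.7 in D1+ TGF-β. It was at 98.7, 108.2 and 109.6 cpm in D20 and at 78.8, 82.9 and 82.0 in D20+ TGF-β. Every library with TGF-β was thus below every library without it. SDHA fell by 0.31 on the log2 scale (SE 0.06, edgeR adjusted p = 0.00262) at D1 and fell by 0.38 (SE 0.06, adjusted p = 0.000288) at D20, and the responses differed by -0.07 (adjusted p = 0.616). The change from D1 to D20 was -0.03 without and -0.10 with TGF-β, and neither passed. The D20 call was kept in each of 12 fits with 1 library left out and the D1 call in 10, with a largest adjusted p of 0.0196 without D1+ TGF-β replicate 2. The annotation holds 4 pseudogenes named after SDHA, and how reads shared with them were counted is not given in the sources used here.

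SDHB (chromosome 1: 17345159 to 17380527, minus strand), the iron-sulfur subunit that carries the electrons onwards, followed time instead. It was at 67.7, 63.1 and 80.8 cpm in D1, 76.0, 70.8 and 71.8 in D1+ TGF-β, 53.0, 56.5 and 50.5 in D20 and 54.3, 44.6 and 55.3 in D20+ TGF-β. All 6 D20 libraries were below all 6 D1 libraries. SDHB fell by 0.40 (SE 0.10, edgeR adjusted p = 0.00434) in the untreated time comparison and fell by 0.50 (SE 0.10, adjusted p = 0.00118) in the treated time comparison, while its TGF-β responses were 0.05 and -0.05. The call with TGF-β was kept in 12 of 12 fits with 1 library left out, the other in 9, with a largest adjusted p of 0.0249 without D20 replicate 3.

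SDHC, a membrane anchor of the complex, was at 131.3, 143.3 and 137.8 cpm in D20 and at 112.5, 104.7 and 108.0 in D20+ TGF-β, with no overlap, and fell by 0.34 (SE 0.07, edgeR adjusted p = 0.00145); without D20 replicate 2 the adjusted p was 0.0105. At D1 its response was -0.08 (adjusted p = 0.413), and the difference of the responses did not pass (-0.26, adjusted p = 0.0766). SDHD, the other anchor, differed by -0.21 at D20 (adjusted p = 0.137) and passed in no comparison.

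**Figure D3:**
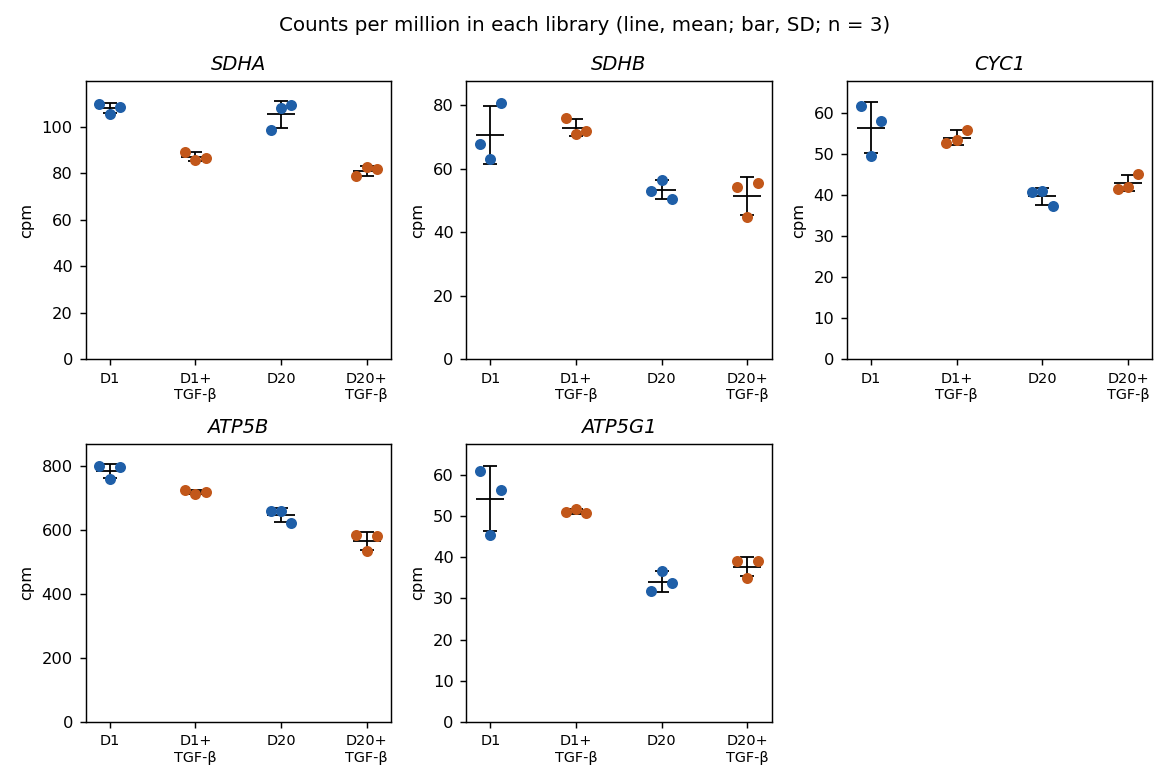
Cpm (y axis, from 0) of SDHA, called in both TGF-β comparisons, and of 4 genes called in both time comparisons, in each of the 3 libraries of the 4 conditions (points; blue without, orange with TGF-β), with mean (line) and SD (bar). SDHA is lower in orange at both times, and SDHB, CYC1, ATP5B and ATP5G1 are lower at D20.

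Promoters were read for genes called in both TGF-β comparisons or in both time comparisons. The 150 bases ahead of the RefSeq transcription start (GRCh38.p14) are given for those held in the table used. These were SDHA (chr5:218170-218319, plus strand), SDHB (chr1:17054033-17054182, minus strand) and ATP5G1 (chr17:48892637-48892786, plus strand). Capitals mark matches on either strand to GCGCA and GCGC with any 1 base between them, a form of the NRF1 motif, CCGGAAG, an ETS motif, AAGATGG, a YY1 motif, or CACGTG, an E-box; NRF1, the ETS factor GABP and YY1 are known regulators of nuclear respiratory genes.
SDHA: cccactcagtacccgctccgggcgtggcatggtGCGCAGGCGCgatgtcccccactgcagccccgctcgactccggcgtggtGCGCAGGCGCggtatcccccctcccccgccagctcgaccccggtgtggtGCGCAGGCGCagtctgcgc
SDHB: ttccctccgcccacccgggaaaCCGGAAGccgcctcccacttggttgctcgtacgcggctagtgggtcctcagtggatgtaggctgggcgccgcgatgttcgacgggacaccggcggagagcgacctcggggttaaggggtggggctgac
ATP5G1: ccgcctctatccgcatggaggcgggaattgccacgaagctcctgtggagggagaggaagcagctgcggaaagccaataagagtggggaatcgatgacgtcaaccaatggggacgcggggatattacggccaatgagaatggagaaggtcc

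In SDHA the NRF1 motif began at -166, -117, -68 and -19 from the start base, counted as 0, the first of these lying outside the bases shown. SDHB had an ETS motif at -128 and a YY1 motif at 10, past the start, and ATP5G1 had an E-box at 4. Windows of 300 bases, 250 before and 50 from the start onwards, were held for 63 of the 76 nuclear genes, 76 windows in all since some genes have more than 1 start. The NRF1 form was in 18.4% of these windows and in 5.78% of all 35116 windows. The ETS motif was in 27.6% against 10.3%, the YY1 motif in 23.7% against 5.84% and the E-box in 9.21% against 7.26%. Among windows of all genes tested these shares were 10.8%, 18.2%, 7.71% and 9.72%. For the called nuclear genes, 14 windows of 9 genes were held. The motifs were in 2, 2, 1 and 1 of them (14.3%, 14.3%, 7.14% and 7.14%), too few to compare with the whole nuclear set. A match is a description of letters and says nothing of binding in these cells.

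Complex I, the NADH dehydrogenase, is the largest complex, and 5 of its 35 nuclear genes were called in at least 1 comparison. NDUFB2, an accessory subunit of the membrane arm, was at 50.7, 56.8 and 53.3 cpm in D20 and at 44.4, 40.8 and 45.9 in D20+ TGF-β, and fell by 0.29 (SE 0.08, edgeR adjusted p = 0.00821). This call was kept in 4 of 12 fits with 1 library left out, and the adjusted p was 0.0455 without D20 replicate 2. NDUFS8, a core subunit that carries iron-sulfur clusters, was at 62.1, 52.1 and 60.4 cpm in D1 and at 48.5, 47.5 and 44.9 in D20, and fell by 0.31 (SE 0.08, adjusted p = 0.00444; 0.0272 without D20 replicate 3). Its responses to TGF-β ran in opposite directions, -0.26 at D1 and 0.15 at D20, with no overlap of the groups at either time, but the difference did not pass (0.41, adjusted p = 0.0174).

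In the treated time comparison NDUFC1, a small accessory subunit, went from 29.8, 29.1 and 30.5 cpm to 22.0, 22.9 and 22.5, and fell by 0.41 (SE 0.09, edgeR adjusted p = 0.00294; 0.0141 without D20+ TGF-β replicate 1). NDUFS1, the core subunit that receives electrons in the NADH-oxidising arm, went from 147.3, 145.0 and 139.5 cpm to 116.0, 120.0 and 125.7, and fell by 0.26 (SE 0.07, adjusted p = 0.00774; 0.0379 without D20+ TGF-β replicate 1). Both changes had no overlap of libraries. Of the 35 nuclear genes of complex I, 1, 2, 2 and 1 were called in the early response, the late response, the treated and the untreated time comparison, all lower. Of all genes, 6.50%, 14.7%, 17.7% and 17.6% were called lower.

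In complex III, CYC1, cytochrome c1, which hands electrons to cytochrome c, was lower at D20 with and without TGF-β. It was at 61.8, 49.6 and 58.0 cpm in D1 and 40.7, 41.0 and 37.3 in D20, and at 52.7, 53.4 and 56.0 in D1+ TGF-β and 41.6, 42.1 and 45.2 in D20+ TGF-β. No D20 library reached any D1 library. CYC1 fell by 0.51 (SE 0.08, edgeR adjusted p = 0.00023) without and fell by 0.33 (SE 0.09, adjusted p = 0.00558) with TGF-β. The former was kept in 12 of 12 fits with 1 library left out and the latter in 7 (0.0252 without D20+ TGF-β replicate 1). The Rieske subunit UQCRFS1 was at 84.1, 79.3 and 95.5 cpm in D1 and at 72.9, 69.5 and 68.0 in D20, and fell by 0.30 (SE 0.08, adjusted p = 0.0064; 0.0323 without D20 replicate 3). The other 7 nuclear genes of complex III passed in no comparison.

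Complex V had called genes of both its catalytic head and its membrane ring. ATP5B (chromosome 12: 57031959 to 57039768, minus strand), the beta subunit on which ATP is formed, was at 800.5, 760.3 and 797.0 cpm in D1 and at 659.4, 659.4 and 622.4 in D20. It was at 726.2, 713.8 and 719.1 cpm in D1+ TGF-β and at 584.8, 534.8 and 581.1 in D20+ TGF-β. D20 libraries were below D1 libraries throughout, and ATP5B fell by 0.28 (SE 0.07, edgeR adjusted p = 0.00282; 0.0203 without D20 replicate 3) without and fell by 0.34 (SE 0.07, adjusted p = 0.000739) with TGF-β, the latter in 12 of 12 fits with 1 library left out.

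The c subunit, which forms the rotating ring of the synthase, is encoded by a family of genes that yield the same mature protein, here ATP5G1, ATP5G2 and ATP5G3, and these moved differently. ATP5G1 (chromosome 17: 46970127 to 46973233, plus strand) was at 61.1, 45.6 and 56.3 cpm in D1, 31.7, 36.8 and 33.9 in D20, 51.0, 51.7 and 50.8 in D1+ TGF-β and 39.2, 35.0 and 39.1 in D20+ TGF-β. It fell by 0.67 (SE 0.10, edgeR adjusted p = 0.000109, kept in 12 of 12 fits with 1 library left out) in the untreated time comparison, the largest change of the 89 genes in the 4 comparisons. With TGF-β it fell by 0.44 (SE 0.10, adjusted p = 0.00301; 0.0167 without D20+ TGF-β replicate 2).

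ATP5G3 was at 178.2, 179.2 and 171.4 cpm in D20 and 175.6, 184.1 and 175.7 in D1+ TGF-β, and at 146.8, 137.3 and 142.0 in D20+ TGF-β, below both. It fell by 0.31 (SE 0.08, edgeR adjusted p = 0.00963; 0.0374 without D20+ TGF-β replicate 2) against D20 and fell by 0.33 (SE 0.08, adjusted p = 0.0057; 0.0274 without D1+ TGF-β replicate 2) against D1+ TGF-β, comparisons that share the D20+ TGF-β libraries. ATP5G2 passed in none, with log2 fold changes between -0.20 and 0.13. The annotation holds 8 pseudogenes named after ATP5G1 and 5 named after ATP5G2, so reads of this family may be split.

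Complex IV, cytochrome c oxidase, had 0 of its 11 nuclear genes called by edgeR in any of the 4 comparisons, with 4, 3, 0 and 3 at an unadjusted p under 0.05. Where tissues use alternative isoforms, the cells used the common ones. COX4I1 was at 183.4 to 236.4 cpm over the 12 libraries and COX6A1 at 82.5 to 108.0, while their counterparts COX4I2 and COX6A2 had 0 counts. COX6B1 was at 85.1 to 109.4 cpm and COX7A2 at 84.7 to 125.7, with COX6B2 at 0.232 cpm or less and COX7A1, the isoform of heart and muscle, at 3.81 to 6.86 cpm. NDUFA4, a complex IV subunit despite its name, was at 131.9 to 172.2 cpm. Its relative NDUFA4L2, known from the response to low oxygen, was at 0.0953, 0.224 and 0.120 cpm in D20 and at 1.18, 1.51 and 1.22 in D20+ TGF-β, a level that was not tested.

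Of the genes with only the name of a subunit, COX7A2L, known as an assembly factor of respiratory supercomplexes, was the single gene called higher. It was at 99.1, 100.2 and 93.2 cpm in D20 and at 125.4, 115.8 and 127.2 in D20+ TGF-β, and rose by 0.33 (SE 0.09, edgeR adjusted p = 0.00929). The groups did not overlap, but the call was kept in 2 of 12 fits with 1 library left out (0.0453 without D20 replicate 3). ATP5SL, now named DMAC2 and tied to complex I assembly, passed in no comparison.

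The 13 mitochondrial genes are transcribed from both strands of the mitochondrial DNA as long precursors that are cut into single transcripts. They held 3.77% ± 0.25 (SD, n = 3) of all counts in D1, 3.33% ± 0.09 in D1+ TGF-β, 3.80% ± 0.12 in D20 and 3.38% ± 0.32 in D20+ TGF-β. The 76 nuclear genes held 0.834% ± 0.073, 0.735% ± 0.0056, 0.736% ± 0.019 and 0.716% ± 0.033. Per kilobase of transcript and averaged over the libraries, MT-CO1 was highest at 7721 cpm, followed by MT-CO2 at 4545, MT-CO3 at 4510.3, MT-ATP6 at 3884, MT-ND4 at 3444, MT-ND4L at 3199 and MT-ATP8 at 2504. Below these were MT-CYB at 2040.1, MT-ND3 at 1644, MT-ND1 at 1633, MT-ND5 at 1269, MT-ND2 at 1005 and MT-ND6, the only one on the other strand, at 987. MT-ATP8, MT-ATP6 and MT-CO3, and MT-ND4L and MT-ND4, overlap, so that reads may be split between them.

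With TGF-β at D20, each of the 13 mitochondrial genes had a log2 fold change below 0, with a median of -0.16, and 6 of them had no overlap between the groups, where 29.7% of all genes were lower without overlap. MT-ND1, a core subunit of complex I, passed the test. It was at 1761, 1836 and 1698 cpm in D20 and at 1311, 1421 and 1213 in D20+ TGF-β, and fell by 0.42 (SE 0.09, edgeR adjusted p = 0.00158; 0.0103 without D20 replicate 2). At D1 its response was 0.00 (adjusted p = 0.98), and the difference of the responses did not pass (-0.43, adjusted p = 0.0243). MT-CO1, the catalytic subunit of complex IV, was at 12855, 14681 and 14126 cpm in D20 and at 11453, 12638 and 9988 in D20+ TGF-β, a difference of -0.29 (adjusted p = 0.0332).

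MT-ND4L (-0.25, edgeR adjusted p = 0.026), MT-ND4 (-0.25, 0.0203), MT-ND3 (-0.24, 0.131) and MT-ND2 (-0.21, 0.0967) also had no overlap. Differences were -0.16 for MT-ND5, -0.15 for MT-CO3, -0.13 for MT-ND6, -0.12 for MT-CYB, -0.10 for MT-CO2, -0.04 for MT-ATP6 and -0.03 for MT-ATP8. D20+ TGF-β replicate 3 was the lowest library of its condition in all 13 of these genes. Without it the median was -0.09, and without D20+ TGF-β replicate 2 it was -0.26.

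In the untreated time comparison none of the 13 mitochondrial genes was called by edgeR (3 at an unadjusted p under 0.05), and the median was 0.09, with MT-ND3 (0.31, adjusted p = 0.0518) and MT-ND6 (0.29, adjusted p = 0.0145) at the upper end. In the treated time comparison none was called (3 at an unadjusted p under 0.05), with a median of 0.03, and in the early response none (0), with a median of -0.09. With 1 library left out, the treated median turned to -0.0471 without D20+ TGF-β replicate 2 and -0.000887 without D20+ TGF-β replicate 1, and was 0.084 without D20+ TGF-β replicate 3. The early median was -0.0259 without D1 replicate 3.

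The ratio of mitochondrial to nuclear counts needs no scaling between libraries, but it carries the deviations of the short nuclear genes described above. Their medians were -0.157 in D1 replicate 2 and 0.152 in D1 replicate 3. The ratio was 4.34, 4.78 and 4.48 in D1, 4.61, 4.55 and 4.43 in D1+ TGF-β, 4.92, 5.26 and 5.33 in D20 and 4.63, 5.42 and 4.16 in D20+ TGF-β. All D20 libraries were above all D1 and D1+ TGF-β libraries, whereas the D20+ TGF-β libraries spread over the whole range. By complex the ratio was highest for complex IV, with means of 15.4, 15.2, 17.3 and 15.2 in the order above, and lowest for complex V, with 1.13, 1.09, 1.19 and 1.25.

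The share of MT-CO1 among mitochondrial messenger counts was 32.3% ± 0.76 (SD, n = 3) in D1, 31.2% ± 0.82 in D1+ TGF-β, 35.7% ± 0.83 in D20 and 33.8% ± 0.51 in D20+ TGF-β. D20 libraries, at 34.7% to 36.3%, were above all others. The ratio of MT-ND6, from the light-strand promoter, to its neighbour MT-ND5 was 0.208 ± 0.006 in D1, 0.221 ± 0.005 in D1+ TGF-β, 0.233 ± 0.004 in D20 and 0.238 ± 0.008 in D20+ TGF-β. Whether counting used the strand of the reads is not given in the sources used here. MT-ND6 counts may thus hold reads of the other strand, and their part in this ratio was not tested.

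**Figure D4:**
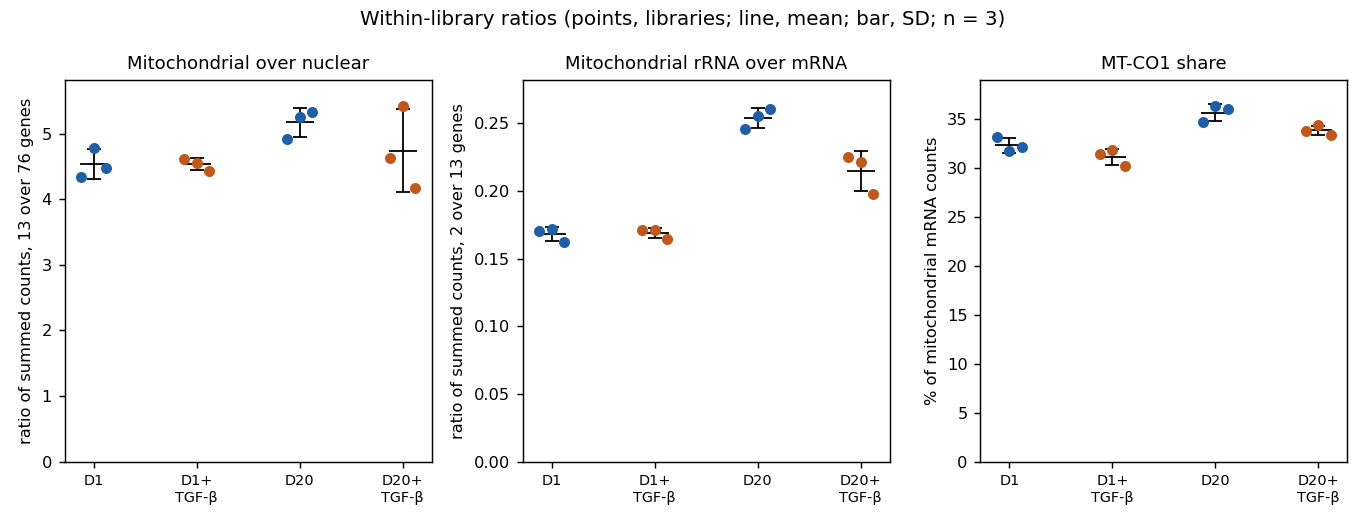
Ratios formed within each library, for the 4 conditions (x axis; points, 3 libraries; line, mean; bar, SD): mitochondrial over nuclear counts of the set (left), mitochondrial rRNA over mitochondrial mRNA counts (middle) and the share of MT-CO1 among mitochondrial mRNA counts in % (right). Means in the middle panel are 0.168 and 0.169 on day 1 without and with TGF-β, and 0.254 and 0.215 on day 20.

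The ribosomal RNAs of mitochondria, which lie next to MT-ND1 at the start of the heavy-strand transcript, were not among the 89 genes. MT-RNR2, the large rRNA, was at 5462, 5549 and 5768 cpm in D1 and at 8278, 9425 and 9252 in D20, and MT-RNR1, the small rRNA, was at 603.2, 484.6 and 634.5 cpm in D1 and at 830.3, 915.0 and 977.4 in D20. In the untreated time comparison they rose by 0.68 (SE 0.11, edgeR adjusted p = 0.000209) and 0.66 (SE 0.10, adjusted p = 0.000124), both in 12 of 12 fits with 1 library left out. With TGF-β at D20 they fell by 0.45 (adjusted p = 0.00567) and fell by 0.45 (adjusted p = 0.00315), and these adjusted p-values reached 0.0278 without D20 replicate 2 for MT-RNR2 and 0.0197 without D20 replicate 3 for MT-RNR1.

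The counts of both rRNAs over those of the 13 messengers gave a ratio of 0.168 ± 0.005 (SD, n = 3) in D1, 0.169 ± 0.004 in D1+ TGF-β, 0.254 ± 0.007 in D20 and 0.215 ± 0.015 in D20+ TGF-β. Every D20 library was above every D20+ TGF-β library, and these above every library of day 1. How rRNA was removed or messengers selected is not given in the sources used here, and its part in this ratio was not tested.

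Genes that build and serve the respiratory chain were counted in lists. In the untreated time comparison, 36.4% of all genes were called, 18.9% higher and 17.6% lower. Of 31 genes of mitochondrial DNA maintenance, transcription and RNA processing, 18 were called, 16 lower and 2 higher, with a median of -0.35. The count was 11 without D1 replicate 3 or D20 replicate 3, and 18 at most with 1 library left out. TFAM, which packages mitochondrial DNA and starts its transcription, was at 29.0, 32.4 and 33.9 cpm in D1 and at 20.7, 17.5 and 20.0 in D20, and fell by 0.71 (SE 0.09, edgeR adjusted p = 2.22e-05). POLG, the mitochondrial DNA polymerase, fell by 0.68 (SE 0.09, adjusted p = 2.77e-05) and C10orf2, the helicase Twinkle, fell by 1.11 (SE 0.11, adjusted p = 3.09e-06). These calls were kept in 12 of 12 fits with 1 library left out. Beside them stand the mitochondrial messengers with a median of 0.09 and the rRNAs that rose.

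Of 78 genes of the mitochondrial ribosome, 29 were called lower and 0 higher in the untreated time comparison (median -0.29), which is 37.2% against 36.4% of all genes, led by MRPL12, which fell by 0.90 (edgeR adjusted p = 3.74e-05). The count was 12 to 47 when 1 library was left out, lowest without D20 replicate 3, 14 without D1 replicate 3 and highest without D1 replicate 2. Among assembly factors, 4 of 13 for complex I were lower, with FOXRED1 at -0.85 (edgeR adjusted p = 2.62e-05). Of 26 for complexes II to V, 7 were lower and 1 was higher. In either direction this was 30.8% of each list, below the 36.4% of all genes. Only 17.6% of all genes were called lower, and lower calls exceeded that share in the ribosome list and in both assembly lists. With 1 library left out, 2 to 6 of the 13 and 5 to 9 of the 26 assembly factors were called in either direction. The excess of lower calls thus depended on the libraries used. UQCC2, which serves cytochrome b synthesis, fell by 0.70 (adjusted p = 0.000131), and COA5, a factor for complex IV, rose by 0.69 (adjusted p = 0.000692).

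Cytochrome c itself, CYCS, the mobile carrier between complexes III and IV, moved with both variables. It was at 139.8, 151.4 and 202.1 cpm in D1, 217.9, 241.1 and 216.0 in D1+ TGF-β, 98.4, 98.6 and 93.5 in D20 and 133.3, 124.9 and 138.3 in D20+ TGF-β, with no overlap between any of the 4 compared pairs. It rose by 0.45 with TGF-β at D1 (SE 0.11, edgeR adjusted p = 0.00908; 0.0522 without D1+ TGF-β replicate 2) and by 0.45 at D20 (SE 0.11, adjusted p = 0.00582; 0.0277 without D20 replicate 3). Over time it fell by 0.76 without (adjusted p = 8.51e-05) and fell by 0.77 with TGF-β (adjusted p = 0.000101). Of the 9 subunits and carriers tested outside the name pattern, SLC25A5, an exchanger of ADP and ATP, was the only other one called, and fell by 0.58 in the untreated time comparison (adjusted p = 0.000263) and rose by 0.57 in the late response (adjusted p = 0.000407).

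In the citric acid cycle with pyruvate dehydrogenase, 6 of 18 genes were lower and 1 higher in the untreated time comparison, and 7 lower and 1 higher in the treated time comparison. These are 38.9% against 36.4% of all genes and 44.4% against 34.8%. In these comparisons, 17.6% and 17.7% of all genes were called lower. IDH2, isocitrate dehydrogenase, was the 1 gene called with TGF-β, and rose by 0.51 at D1 (edgeR adjusted p = 0.00119) and fell by 0.46 at D20 (adjusted p = 0.00124). FH, fumarase, which uses the product of complex II, fell by 0.57 (edgeR adjusted p = 0.000361) and fell by 0.55 (adjusted p = 0.000585), and its TGF-β responses were 0.02 and 0.05. Among 12 regulators, 5 were lower and 0 higher in the untreated time comparison, 3 lower and 2 higher in the treated time comparison, 1 higher in the late response, and 0 in the early response (3 at an unadjusted p under 0.05 in edgeR). Both time comparisons thus had 41.7% of the regulators called, against 36.4% and 34.8% of all genes. MYC, a driver of growth that also raises mitochondrial genes, was at 51.5, 35.6 and 50.1 cpm in D1, 19.5, 19.7 and 17.7 in D20 and 32.9, 25.9 and 36.2 in D20+ TGF-β, and fell by 1.27 in the untreated time comparison (adjusted p = 9.49e-06) and rose by 0.74 in the late response (adjusted p = 0.00112). PPRC1, a coactivator, fell by 0.73 (adjusted p = 1.93e-05) and ESRRA, an orphan receptor that drives respiratory genes, fell by 0.50 (adjusted p = 0.000995). PPARGC1A, the best known coactivator of these genes, was below the level tested, at 0.581 to 2.03 cpm in 10 libraries and at 5.50 and 5.75 in D20+ TGF-β replicates 1 and 2.

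In the late response, which shares the D20 libraries with the untreated time comparison, these lists had few called genes. The mitochondrial ribosome had 6 genes higher and 0 lower of 78 (median 0.11), with MRPS27 at 0.58 (edgeR adjusted p = 0.000192), below the background of 27.5%. The genes of mitochondrial DNA maintenance, transcription and RNA processing had 3 higher and 1 lower of 31, among them C10orf2, which rose by 0.82 (adjusted p = 7.55e-05). Assembly factors had 2 of 13 higher for complex I, and 2 higher and 2 lower of 26 for complexes II to V. In the treated time comparison, 8 lower and 2 higher of the 31 and 13 lower and 2 higher of the 78 were called. The assembly lists had 3 lower of 13, and 2 lower and 2 higher of 26. Of all genes, 34.8% were called, 17.2% higher and 17.7% lower. Lower calls exceeded that last share among the 31 and the 13 only. With 1 library left out, these 2 lists had 7 to 11 and 2 to 3 called genes. TFAM was at -0.61 (edgeR adjusted p = 0.000108). In the early response these 4 lists had no called gene in edgeR, with 4, 18, 5 and 6 genes at an unadjusted p under 0.05.

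**Figure D5:**
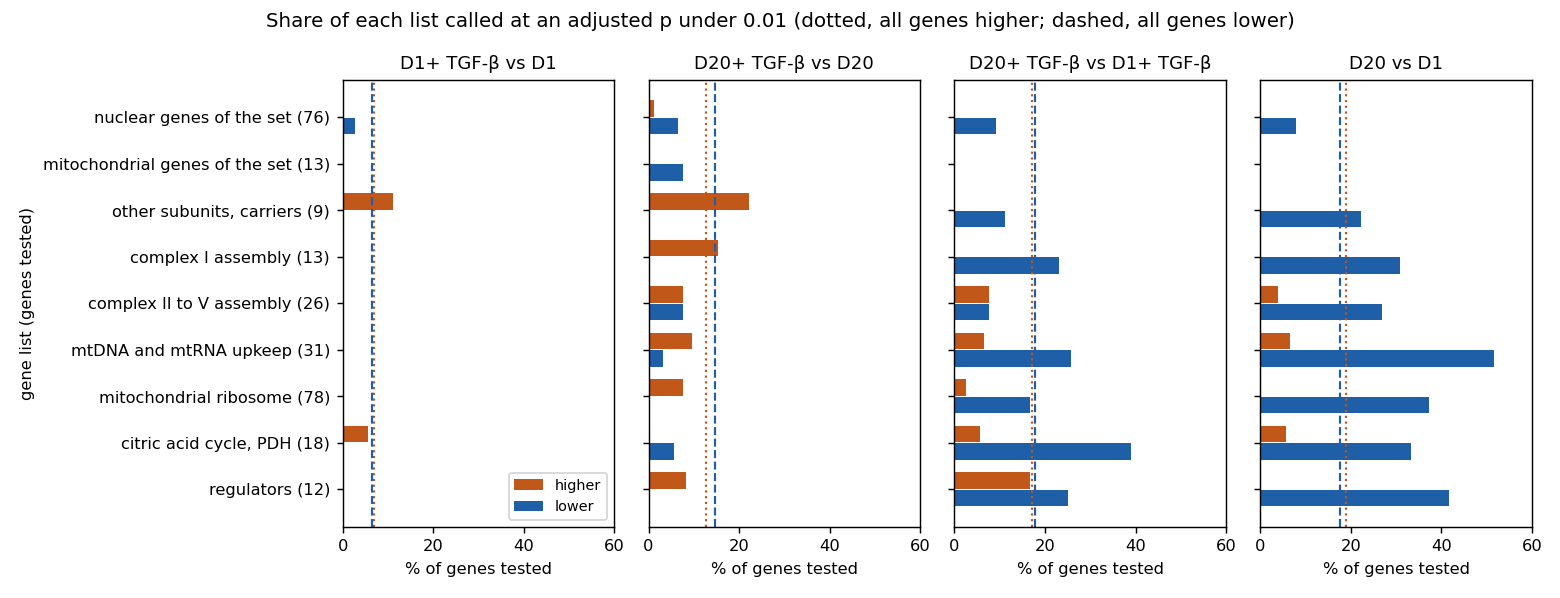
Share (x axis, % of genes tested) of each list of mitochondrial genes called higher (orange) or lower (blue) in the 4 comparisons; the number of genes tested is in parentheses, and vertical lines give the share of all genes called higher (dotted) and lower (dashed). In the untreated time comparison the blue bars of the nuclear and mitochondrial genes of the set lie short of the dashed line. Those of all the other lists lie beyond it.

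Some genes of the complexes lay outside the set because of their names or levels. NDUFA3 (14.1 to 20.1 cpm) has no symbol in the authors' filtered table, and ATP5IF1, ATP5MK and ATP5MJ appear there under older names. All 4 were tested, and none was called in any comparison by edgeR, with 1, 1, 0 and 0 at an unadjusted p under 0.05 in the order of comparisons above. UQCRHL, a copy of UQCRH, was at 8.36 to 12.5 cpm and was not tested, COX8C and ATP5MGL were at 0.169 cpm or less, and COX7B2 had 0 counts.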

How the data were processed

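RNA was sequenced from 3 flasks per condition, paired end, on a NextSeq 500 after a strand-specific library kit. Per the labels and the study's methods, the authors trimmed reads with Trimmomatic, aligned them to hg19 with Rsubread and deposited raw counts per gene and lane, and a filtered table of log2 cpm, scaled by library size, made with limma voom. The counting settings, the use of strand and any removal of rRNA are not given in the sources used here. The 4 lanes of each library were summed, and 0 columns were left unassigned.

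Counts were tested with edgeR 4.0.16 (quasi-likelihood, TMM factors, 1 mean per condition over 12 libraries, R 4.3.3) for genes reaching 10 cpm in 6 or more libraries. Genes were called at a Benjamini-Hochberg adjusted p under 0.01 over 9490 genes. The common biological coefficient of variation was 9.35%. SEs are those of log2 fold changes, and cpm use TMM library sizes. A fit with 1 library left out was made for each of the 12 libraries. Other fits used DESeq2 1.42.0, limma 3.58.1, other scalings and other filters. The scripts were tested on simulated data. The members, lists and rules were chosen with earlier results of these data known. Genes were named by rule: the mitochondrial genes, complex II, CYC1, isoform groups and name-only genes, the called nuclear genes with the largest changes by comparison and complex, and up to 3 called genes per list and comparison. NDUFB2, NDUFS1, PPARGC1A, the genes outside the set and the cell markers were added after their values were seen. Some results are not reported here.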

Additional observations from a re-analysis of the deposited data

Results flagged for a closer look

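No gene of the 89 had a TGF-β response that differed between D20 and D1 by edgeR, but 10 genes of the lists around them did (edgeR adjusted p under 0.01 for the difference of log2 fold changes, D20 minus D1). Groups of 3 libraries were not tested for outlying samples.

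The difference was -0.96 (adjusted p = 0.000219) for IDH2, which rose at D1 and fell at D20. For C10orf2 it was 0.81 (adjusted p = 0.00235), with responses of 0.01 and 0.82. For TACO1, a translational activator of MT-CO1, it was 0.65 (adjusted p = 0.00308), with responses of -0.29 and 0.36. The calls of IDH2 and C10orf2 were kept in 12 of 12 fits with 1 library left out and that of TACO1 in 11, the adjusted p being 0.0118 without D20 replicate 2.

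The other 7 calls were kept in 1 to 5 of these fits. The difference was 0.69 for UQCC2 (adjusted p = 0.00646; 0.0236 without D1+ TGF-β replicate 2) and 0.56 for COA1 (0.00842; 0.0274 without D20 replicate 2). It was -0.48 for RRM2B (0.00483; 0.0189 without D1+ TGF-β replicate 2) and -0.48 for SCO1 (0.00949; 0.0316 without D20 replicate 2). Of the mitochondrial ribosome, it was 0.60 for MRPL34 (0.00897; 0.0289 without D1+ TGF-β replicate 1), 0.57 for MRPS27 (0.00633; 0.0236 without D1+ TGF-β replicate 2) and 0.47 for MRPS2 (0.00749; 0.0266 without D20 replicate 3).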

How the results depend on the processing

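Of 22 calls among the 89 genes, 5 were kept under each of 24 alternatives (SDHA in the late response, ATP5B and SDHB in the treated time comparison, ATP5G1 and CYC1 in the untreated time comparison), 17 were lost under at least 1, and 0 turned direction. In the order early response, late response, treated time comparison, untreated time comparison and difference of responses, leaving out 1 library gave 0 to 18, 1 to 10, 2 to 12, 2 to 19 and 0 to 3 called genes. Treating 48 lanes as samples gave 26, 36, 33, 38 and 20, since lanes of 1 library share its RNA. Without D1 replicate 2 and D20+ TGF-β replicate 3, an alternative chosen after seeing the data, the counts that moved were 25, 12 (the treated time comparison), 32 (the untreated time comparison) and 5 (difference). For the early response, the count was 1 on the deposited log2 values, with filterByExpr and with the replicate block, 0 with only its 6 libraries and 6 with no composition factor. For the late response it was 4 on the deposited log2 values and with filterByExpr, and for the treated time comparison 4 with no composition factor. For the untreated time comparison it was 14 with no composition factor and with no gene filter, 10 with filterByExpr and 3 with only its 6 libraries. The difference had 1 with DESeq2 and with no composition factor. Over all genes, the settings other than leaving out 1 library called 802 to 3895, 2379 to 5154, 3086 to 5724, 2647 to 5893 and 831 to 3702, in the order above. The cause of these shifts was not tested.

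The mitochondrial median of the late response was -0.26 to -0.0914 with 1 library left out (lowest without D20+ TGF-β replicate 2) and -0.0752 without both libraries. The nuclear median of the untreated time comparison was -0.20 without both libraries, and -0.18 to -0.0201 with 1 left out. With 1 left out, the nuclear median of the difference was -0.017 to 0.15. The median of the difference was 0.16 (nuclear) and -0.0133 (mitochondrial) with no composition factor, and 0.14 and -0.0121 without both libraries. Same-numbered libraries deviated together with r of -0.225 to 0.0259, so the numbers were not taken as pairs, and the block moved no other count by over 1.5 times. Depth limits genes near 10 cpm.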
